A study of Mus musculus with 4 samples.

Results

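The semaphorins, plexins and neuropilins form a family of guidance ligands and receptors, and their genes were examined in mouse lungs carrying TNBC metastases with and without cmLumiOpto/PARPi treatment. Members were taken by name from the deposited gene table: every protein-coding gene called Sema followed by a class number and a letter, every Plxn gene of types A to D, and Nrp1 and Nrp2. This gave 31 genes, namely 20 semaphorins, 9 plexins and 2 neuropilins, out of 56748 genes of which 21970 are protein-coding. The rule goes by name and gene type, not by level. Of the 31 members, 30 had enough counts to be tested, and Plxnb3 did not.

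All mice were BALB/cJ females injected at 7 weeks of age through the tail vein with 4T1-FLuc cells, a mouse TNBC line that carries firefly luciferase and spreads to the lungs. The saline group (n = 2 libraries, a control the labels call PBS) was compared with the cmLumiOpto/PARPi group (n = 2 libraries), treated over 3 weeks. The treated mice received olaparib, an inhibitor of PARP, at 50 mg/kg by mouth. They also received an adeno-associated virus carrying the light-gated mitochondrial channel construct cmLumiOpto inside exosomes tagged with a CD276 antibody. ViviRen, the substrate of the Nanoluciferase that cmLumiOpto also encodes, was given at 2 mg/kg. The light of that enzyme opens the channel. Virus and ViviRen were injected on set days within that time, not throughout. No sample of the series comes from mice given vector or olaparib alone, and the paper left olaparib alone out of this model. The parts of the combination therefore cannot be told apart. The labels describe the material as tumour cells taken from lungs, whereas the methods describe lung tissue with metastasis. Lung markers and epithelial markers listed here for the tumour were both abundant. Sftpc, a surfactant gene of alveolar type 2 cells, lay between 176 and 6153 CPM, and Krt8, an epithelial keratin, between 998 and 1640 CPM. Whether Krt8 came from tumour or lung epithelium was not tested. In such bulk RNA, fewer cells of a type and less RNA per cell cannot be told apart.

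Semaphorins carry a sema domain by which they bind plexins, and binding switches on a GTPase-activating domain in the plexin tail that acts on small GTPases of the Ras and Rap type and loosens the hold of a cell on its matrix. Class 3 semaphorins are secreted and most of them need a neuropilin as coreceptor, while classes 4 to 7 are held at the membrane and bind plexins directly. Neuropilins also bind vascular endothelial growth factors. First known from the steering of axons, the system acts in blood and lymph vessels, in immune cells and in carcinomas, including breast carcinoma.

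The libraries held between 15263375 and 16755228 counts, and members together took 37032 and 31699 counts in saline and 33271 and 28831 after treatment. Levels are given as CPM, a gene's counts over the TMM-scaled library total in parts per 1000000, in the order saline 1, saline 2, treated 1, treated 2. A count of 3, taken as the lowest level told from 0, was worth 0.173 to 0.204 CPM, for counting error only, and every member reached it in every library. The test was edgeR's quasi-likelihood test over 15167 genes with Benjamini-Hochberg adjustment. The labels do not say how the 2 libraries of a group relate, so a p-value measures only the spread between these libraries. An exact two-sided permutation test of 2 against 2 libraries cannot give a p below 0.333, so none was run for single values.

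Summed over all 31 members the level was 2322 and 2160 CPM in saline and 1915 and 1735 CPM after cmLumiOpto/PARPi, lower in both treated libraries. The receptors accounted for most of this gap. Plexins summed to 1055 and 988 CPM in saline against 811 and 736 CPM, and neuropilins to 410 and 422 CPM against 314 and 323 CPM, so neither pair of groups overlapped. Semaphorins summed to 858 and 749 CPM in saline against 790 and 676 CPM, and there the groups overlapped. The plot of member levels by library shows all 31 genes.

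**Figure D1:**
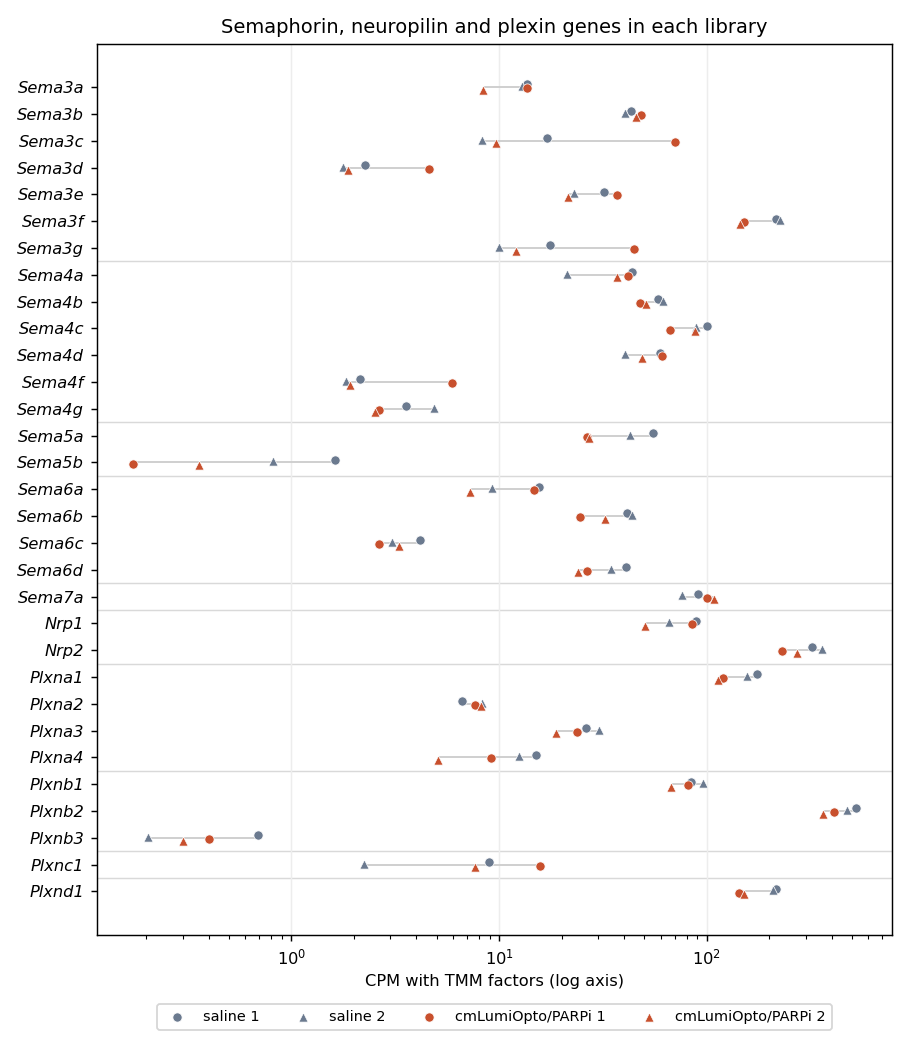
CPM with TMM factors (log axis) of each member in the 2 saline libraries (grey) and the 2 cmLumiOpto/PARPi libraries (orange), circles for replicate 1 and triangles for replicate 2, with grey rules between classes. Sema3f, Sema5a, Plxna1, Plxnb2 and Plxnd1 have both orange points below both grey points, whereas in Sema3c, Sema3g and Sema4f the orange circle alone stands to the right.

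No member passed an adjusted p of 0.05 in the quasi-likelihood test, and neither did any other gene, so the share called over all genes was 0.0%. At an unadjusted p under 0.05, 9 of the 30 tested members were lower and 0 were higher, where 12.0% of all tested genes were lower and 9.21% were higher. The 9 were Sema3f, Sema5a, Sema5b, Sema6b and Sema6d among the ligands and Plxna1, Plxna4, Plxnd1 and Nrp2 among the receptors. DESeq2 called 4 members at an adjusted p under 0.05, all of them lower (Sema5a, Sema3f, Plxnd1 and Plxna1), where it called 7.71% of the genes it gave an adjusted p. The exact test of edgeR called 1 member, Sema5a, against 5.37% of genes, and its likelihood ratio test called the same 1 member against 5.7%. In 15 members both treated libraries were below both saline libraries and in 2, Sema3b and Sema7a, both were above, while 13 overlapped. Over all tested genes 27.8% were lower and 27.4% were higher in this way.

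The median log2 fold change (treated over saline) of the 30 tested members was -0.28, where the median over all tested genes was 0.02. It was -0.23 over the 20 semaphorins and -0.39 over the 10 tested plexins and neuropilins. The semaphorin median changed sign when saline 1 was left out (0.075) and when treated 2 was left out (0.095), while the receptor median stayed between -0.48 and -0.28 whichever library was left out.

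Gene length moved with these values. Members are long, with a median of 7800 bases of gene length in the deposited table against 4127 over all tested genes, and 82.8% of tested genes were shorter than the median member. Across all tested genes the fold change was lower the longer the gene (Spearman's rho = -0.37 over 15167 genes, which are not independent replicates). With the tested genes split by length into 5 groups of like size, the median log2 fold change went from 0.31 among the shortest to -0.27 among the longest. The group of longest genes held 18 of the 30 tested members, with a median of -0.33, and the next held 7, with a median of -0.28 against -0.09 over all genes of that length.

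A length offset removes, in each library, the smooth trend with length of a gene's departure from its mean over the libraries. In the fit with it the median log2 fold change was -0.060 over the members, 0.072 over semaphorins and -0.14 over plexins and neuropilins. In that fit 4 members (Sema3f, Sema5b, Sema6b and Plxnd1) were lower at an unadjusted p under 0.05 and 0 were higher, where 7.7% of all genes were lower and 7.89% were higher. Groups did not overlap in 10 members that were lower and in 3 that were higher (Sema3b, Sema7a and Plxna2), where the shares over all genes were 24.9% and 25.9%. Receptor levels and the length trend moved together in these libraries, and the part of the trend in them was not tested beyond this offset.

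**Figure D2:**
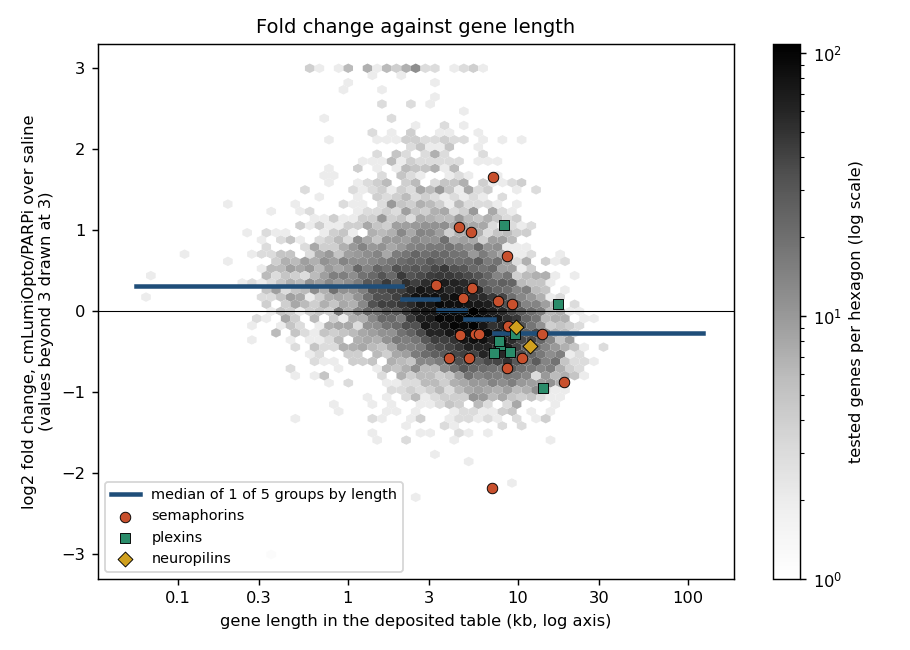
Log2 fold change of cmLumiOpto/PARPi over saline against gene length (log axis) for all 15167 tested genes as grey density, with horizontal bars at the median of each of 5 groups of genes by length and the 30 tested members as coloured symbols. The bars step down from 0.31 to -0.27, and 18 members lie in the group of longest genes.

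Promoter sequence is shown for 4 members that stand for the patterns among the levels. Sema5a and Plxnd1 were lower in both treated libraries with little spread between the treated libraries, and Plxnc1 and Sema3g were highest in treated 1 and are described with the library differences. The 250 bases before the transcription start are printed from RefSeq on assembly GRCm38.p6, read 5' to 3' on the strand of the gene, with capitals marking every GC box, which is GGGCGG or CCGCCC on the other strand and is the core of the sites that SP1-type factors bind. The window of Sema5a is chr15:32244563-32244812 on the plus strand, that of Plxnd1 chr6:115995006-115995255 on the minus strand, that of Plxnc1 chr10:94944846-94945095 on the minus strand and that of Sema3g chr14:31217623-31217872 on the plus strand.
Sema5a: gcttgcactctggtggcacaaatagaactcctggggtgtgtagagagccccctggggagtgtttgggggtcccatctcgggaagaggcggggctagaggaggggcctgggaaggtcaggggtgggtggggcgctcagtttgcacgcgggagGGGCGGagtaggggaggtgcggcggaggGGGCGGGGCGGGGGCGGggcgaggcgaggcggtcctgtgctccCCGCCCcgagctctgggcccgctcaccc
Plxnd1: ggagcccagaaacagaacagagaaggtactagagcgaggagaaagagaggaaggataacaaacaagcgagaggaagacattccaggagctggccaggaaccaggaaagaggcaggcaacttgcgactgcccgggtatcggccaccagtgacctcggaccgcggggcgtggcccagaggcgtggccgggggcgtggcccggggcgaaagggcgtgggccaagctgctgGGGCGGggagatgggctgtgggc
Plxnc1: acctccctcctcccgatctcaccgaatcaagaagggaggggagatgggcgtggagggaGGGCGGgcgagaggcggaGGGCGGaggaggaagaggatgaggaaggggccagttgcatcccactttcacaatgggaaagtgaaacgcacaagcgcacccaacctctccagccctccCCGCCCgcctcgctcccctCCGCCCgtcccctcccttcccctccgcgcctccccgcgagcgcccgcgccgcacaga
Sema3g: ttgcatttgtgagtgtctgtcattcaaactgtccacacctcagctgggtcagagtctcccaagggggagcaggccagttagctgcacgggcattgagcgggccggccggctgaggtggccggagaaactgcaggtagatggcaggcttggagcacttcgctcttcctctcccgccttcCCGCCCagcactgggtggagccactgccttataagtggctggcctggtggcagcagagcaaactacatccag
The Sema5a window holds 5 GC boxes, 2 of which share a base, and 72.0% G and C. Plxnc1 holds 4 GC boxes and 22 CpG dinucleotides, while Plxnd1 and Sema3g hold 1 box each with 16 and 8 CpG. RefSeq promoters were matched for 26 of the 31 members, 37 promoters in all, and Plxna1, Plxna4, Sema3b, Sema3f and Sema6a had no entry. A GC box was found in 27 of the 37 member promoters (73.0%) and in 32.7% of all 32851 promoters of the same length. The median G and C content was 64.0% in member promoters and 52.4% over all promoters. The motif TATAAA, searched on both strands, was in 0 of the 37 and in 12.4% of all promoters, and CCAAT was in 7 (18.9%) against 33.8%. Among the members with non-overlapping lower levels, 11 of the 12 with a promoter had a GC box, and among the other tested members 10 of 13 did. Over all promoters the median was 6 CpG. Counted by promoter, the median was 19 CpG over the 17 promoters of the lower members and 6 CpG over the 19 of the others. Genes with several promoters, such as Sema4a and Sema4d among the others, weigh more in these medians. A match describes these letters and is not a bound site.

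Among the ligands, the secreted class 3 was led by Sema3f, which binds Nrp2 and is known to repel lymphatic and blood endothelial cells. Sema3f (ENSMUSG00000034684, chromosome 9 from 107558699 to 107587674 in the deposited table, whose build the processing notes name as mm39) had 215, 225, 151 and 145 CPM, which is 220 ± 7.0 CPM in saline and 148 ± 4.17 CPM after treatment (SD, n = 2). Both treated libraries lay far below both saline libraries relative to the spread within a group. The log2 fold change was -0.57 with a standard error (SE) of 0.13, and the adjusted p was 0.138 in the quasi-likelihood test and 0.0125 in DESeq2. With the length offset it was -0.49, with an unadjusted p of 0.00890, the lowest among the members in that fit. Without any 1 library it stayed between -0.62 and -0.56.

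Sema3b, which lies in the same region of chromosome 9 and is known as a candidate tumour suppressor, did not follow Sema3f. Its levels were 43.4, 40.3, 48.2 and 45.8 CPM, slightly higher in both treated libraries, with a log2 fold change of 0.17 (SE 0.14, adjusted p = 0.522 in the quasi-likelihood test). Sema3a, the classical repellent that acts through Nrp1, had 13.7, 12.9, 13.6 and 8.36 CPM, with only treated 2 apart from the rest. Sema3e, which binds Plxnd1 without a neuropilin, had 32.0, 22.8, 37.1 and 21.5 CPM, so the 2 libraries within each group lay further apart than the group means.

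Further class 3 genes were high in treated 1 alone. Sema3c, which guides vessels and neural crest cells, had 16.9, 8.25, 70.1 and 9.69 CPM, and treated 1 was 7.24 times treated 2. The log2 fold change of 1.66 had a standard error of 0.88, the groups overlapped, and without treated 1 the value was -0.38. Sema3g, known for its expression in endothelial cells, had 17.5, 9.95, 44.7 and 12.0 CPM, with a log2 fold change of 1.05 (SE 0.62) that was -0.19 without treated 1. Sema3d had 2.26, 1.77, 4.61 and 1.87 CPM and -0.11 without treated 1 in place of 0.68. None of these passed the test, with adjusted p of 0.325 for Sema3c, 0.373 for Sema3g and 0.507 for Sema3d.

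Compared per kilobase of gene length, the make-up of class 3 differed between libraries. Sema3f made 67.4% and 73.8% of the summed class 3 level in saline and 45.1% and 62.4% after treatment, lower in both treated libraries. The rest was spread unevenly, since Sema3c made 15.3% in treated 1 and 1.97% to 3.86% elsewhere, Sema3g made 15.3% in treated 1 and 3.74% to 6.28% elsewhere, and Sema3b made 21.5% in treated 2 and 14.4% to 15.7% elsewhere. The plot of shares by library shows class 3 beside the receptors.

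**Figure D3:**
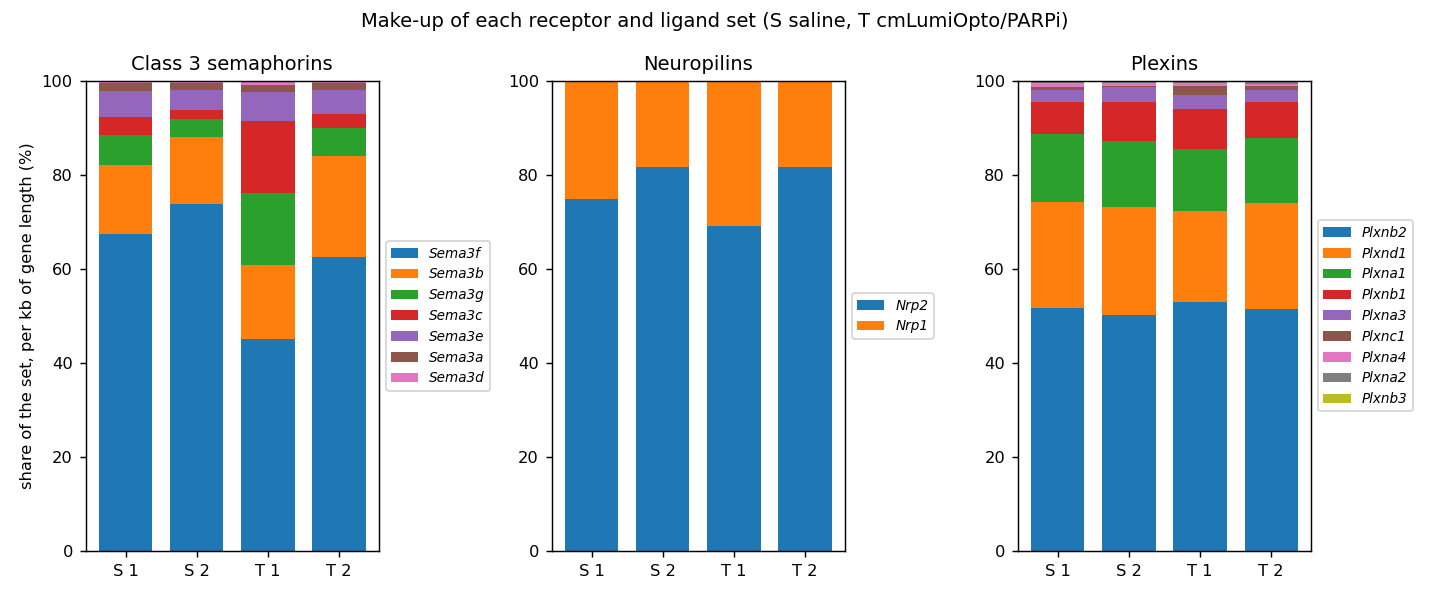
Stacked bars of the share of each gene in the summed level per kilobase of gene length (%), for class 3 semaphorins, neuropilins and plexins, in saline libraries S 1 and S 2 and cmLumiOpto/PARPi libraries T 1 and T 2. Plxnb2 holds between 50.1% and 52.9% of the plexin level in all 4 libraries, while the share of Sema3f goes from 73.8% in saline 2 down to 45.1% in treated 1.

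Class 4 semaphorins, transmembrane ligands that mostly bind B-type plexins, gave no member past an unadjusted p of 0.05. Sema4c, a ligand of Plxnb2, had 101, 88.3, 66.4 and 87.4 CPM and was the most abundant of the class per kilobase in every library. The treated libraries were lower, but treated 2 was only just below saline 2, and the log2 fold change was -0.30 (SE 0.18). An antisense gene, D430040D24Rik, overlaps Sema4c with 49 to 79 counts per library, and the strand setting of the libraries is not given in the sources used here, so its reads may be counted with those of Sema4c or the reverse.

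Sema4b had 58.3, 61.4, 47.8 and 50.9 CPM, lower in both treated libraries with little spread in either group, at a log2 fold change of -0.28 (SE 0.14). Sema4d, known as CD100 and a ligand of Plxnb1 and of Cd72 on immune cells, had 59.5, 40.5, 60.6 and 49.0 CPM, and its groups overlapped. Sema4a, which acts in T cell priming, had 43.7, 21.3, 42.0 and 37.1 CPM, where saline 2 alone was low. Sema4f had 2.13, 1.84, 5.93 and 1.93 CPM, again high in treated 1 alone, and its log2 fold change of 0.98 was -0.046 without that library. Sema4g was low throughout at 3.57, 4.84, 2.65 and 2.53 CPM, lower in both treated libraries with an adjusted p of 0.338.

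Class 5 semaphorins carry thrombospondin repeats next to the sema domain and can attract or repel depending on the matrix. Both members of the class were lower after treatment. Sema5a (ENSMUSG00000022231, chromosome 15 from 32244956 to 32696487 in the table) had 55.2, 42.7, 26.6 and 27.1 CPM. The treated libraries were close to each other and well below saline 2, the lower of the saline libraries, so the mean was 49.0 ± 8.90 CPM in saline and 26.9 ± 0.381 CPM after treatment (SD, n = 2). The log2 fold change was -0.87 with a standard error of 0.18, a saline level 1.82 times the treated level, and the unadjusted p of 0.00339 was the lowest among the members. Its adjusted p was 0.138 in the quasi-likelihood test, 0.0106 in DESeq2, 0.0199 in the exact test and 0.0184 in the likelihood ratio test. Sema5a is also the longest member at 18686 bases, and with the length offset its log2 fold change was -0.44, with an unadjusted p of 0.0815.

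Sema5b, its relative, was near the floor, with 26 and 12 counts in saline and 3 and 6 counts after treatment. That is 1.63, 0.818, 0.173 and 0.361 CPM, lower in both treated libraries. The fitted log2 fold change of -2.18 had a standard error of 0.72 and an adjusted p of 0.187, and at these counts its size is uncertain. DESeq2 gave no adjusted p for this gene.

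Class 6 semaphorins are transmembrane ligands of A-type plexins that can also signal backwards into the cell that carries them. Summed, they had 102 and 90.3 CPM in saline and 68.4 and 66.9 CPM after treatment. Sema6d, a ligand of Plxna1, had 40.7, 34.5, 26.6 and 24.0 CPM. Sema6b, a ligand of Plxna4, had 41.4, 43.5, 24.4 and 32.4 CPM. In both genes the treated libraries were below the saline libraries, with a log2 fold change of -0.57 (SE 0.17) for Sema6d and -0.58 (SE 0.19) for Sema6b, and adjusted p of 0.169 and 0.184. With the length offset Sema6b, a short member of 3968 bases, stayed at -0.59 while Sema6d, of 10559 bases, went to -0.28. Sema6a had 15.6, 9.20, 14.7 and 7.22 CPM and followed the replicate number rather than the treatment, and Sema6c had 4.14, 3.07, 2.65 and 3.31 CPM with overlapping groups.

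Sema7a, the only class 7 member, is anchored by a lipid, is found on immune cells and binds Plxnc1 and integrins. It went the other way from most abundant members, with 90.6, 76.3, 101 and 109 CPM, and both treated libraries were above both saline libraries. The log2 fold change was 0.33 (SE 0.14, adjusted p = 0.263 in the quasi-likelihood test), and it stayed between 0.19 and 0.44 whichever library was left out. Per kilobase Sema7a made 17.4% and 16.5% of the summed semaphorin level in saline and 20.8% and 24.8% after treatment. It is also the shortest member, at 3298 bases, and with the length offset its log2 fold change was 0.25.

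The receptors were led by Plxnb2, which binds Sema4c and Sema4d and is widely present in epithelia. Plxnb2 (chromosome 15 from 89039752 to 89064991) had 524, 475, 410 and 364 CPM, lower in both treated libraries, with a log2 fold change of -0.37 (SE 0.15, adjusted p = 0.242). With the length offset it was -0.17 and the groups overlapped. Plxnb1, the other Sema4d receptor, had 84.3, 96.4, 81.1 and 67.2 CPM with a log2 fold change of -0.28, and -0.015 with the offset. Plxnb3, a receptor of Sema5a, was too low to test at 11, 3, 7 and 5 counts.

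Among A-type plexins, the signalling partners of neuropilins and of class 6 semaphorins, Plxna1 was the most abundant. Plxna1 (ENSMUSG00000030084, chromosome 6 from 89293296 to 89339602) had 174, 156, 120 and 113 CPM, which is 165 ± 12.3 CPM in saline and 116 ± 4.44 CPM after treatment (SD, n = 2). The groups were apart by more than their spread. The log2 fold change was -0.50 with a standard error of 0.13, the adjusted p was 0.147 in the quasi-likelihood test and 0.0495 in DESeq2, and with the length offset the value was -0.25. Plxna3 had 26.3, 30.3, 23.6 and 18.8 CPM, lower in both treated libraries at -0.42 (SE 0.20).

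Plxna4, known from sensory and sympathetic axons, had 15.0, 12.5, 9.15 and 5.05 CPM. Both treated libraries were lower, though treated 1 was 1.81 times treated 2, and the log2 fold change was -0.95 (SE 0.35, adjusted p = 0.209). Without any 1 library it lay between -1.44 and -0.61. An antisense gene inside its span, Plxna4os1, held 7 to 24 counts per library, against 84 to 239 for Plxna4. Plxna2 had 6.65, 8.25, 7.66 and 8.18 CPM with overlapping groups, and with the length offset the log2 fold change of this gene of 17174 bases was 0.51 (unadjusted p of 0.104).

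Plxnd1, the receptor of Sema3e, is best known from endothelial cells. Plxnd1 (ENSMUSG00000030123, chromosome 6 from 115931772 to 115971966) had 215, 207, 143 and 152 CPM, which is 211 ± 5.57 CPM in saline and 147 ± 5.93 CPM after treatment (SD, n = 2). The gap between the groups was several times the spread within either. The log2 fold change was -0.52 with a standard error of 0.13, and the adjusted p was 0.143 in the quasi-likelihood test and 0.0294 in DESeq2. It was the only receptor that stayed under an unadjusted p of 0.05 with the length offset, at -0.33 (unadjusted p of 0.0435). Summed endothelial markers (12 genes) lay at 720 and 530 CPM in saline and 1210 and 604 CPM after treatment. That sum was led by treated 1 and overlapped between groups, as did 8 of the 12 genes, while the other 4 were higher in both treated libraries.

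Plxnc1, the receptor of Sema7a on myeloid cells, had 8.91, 2.25, 15.7 and 7.64 CPM. Its groups overlapped and both groups varied by over 2-fold, so the log2 fold change of 1.06 had a standard error of 0.68 (adjusted p = 0.402). Summed macrophage markers overlapped between groups, at 1265 and 1096 CPM in saline and 1198 and 966 CPM after treatment. Of the 8 genes 6 overlapped. Mrc1 (212, 396, 137 and 154 CPM) was lower in both treated libraries and Cd68 (81.0, 75.8, 96.5 and 109 CPM) was higher in both.

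Both neuropilins were present, Nrp2, which prefers Sema3f and the lymphatic growth factor VEGF-C, well above Nrp1, which prefers Sema3a and VEGF-A. Nrp2 (chromosome 1 from 62742444 to 62857854) had 321, 357, 230 and 272 CPM, lower in both treated libraries, with a log2 fold change of -0.43 (SE 0.16, adjusted p = 0.206 in the quasi-likelihood test). With the length offset it was -0.10 and the groups overlapped. Nrp1 had 89.1, 65.7, 84.7 and 50.4 CPM, higher in replicate 1 than in replicate 2 of either group, and its log2 fold change of -0.20 was 0.072 with the offset. Per kilobase Nrp2 was 2.97 and 4.49 times Nrp1 in saline and 2.24 and 4.46 times after treatment, so the ratio was set more by replicate than by group.

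**Figure D4:**
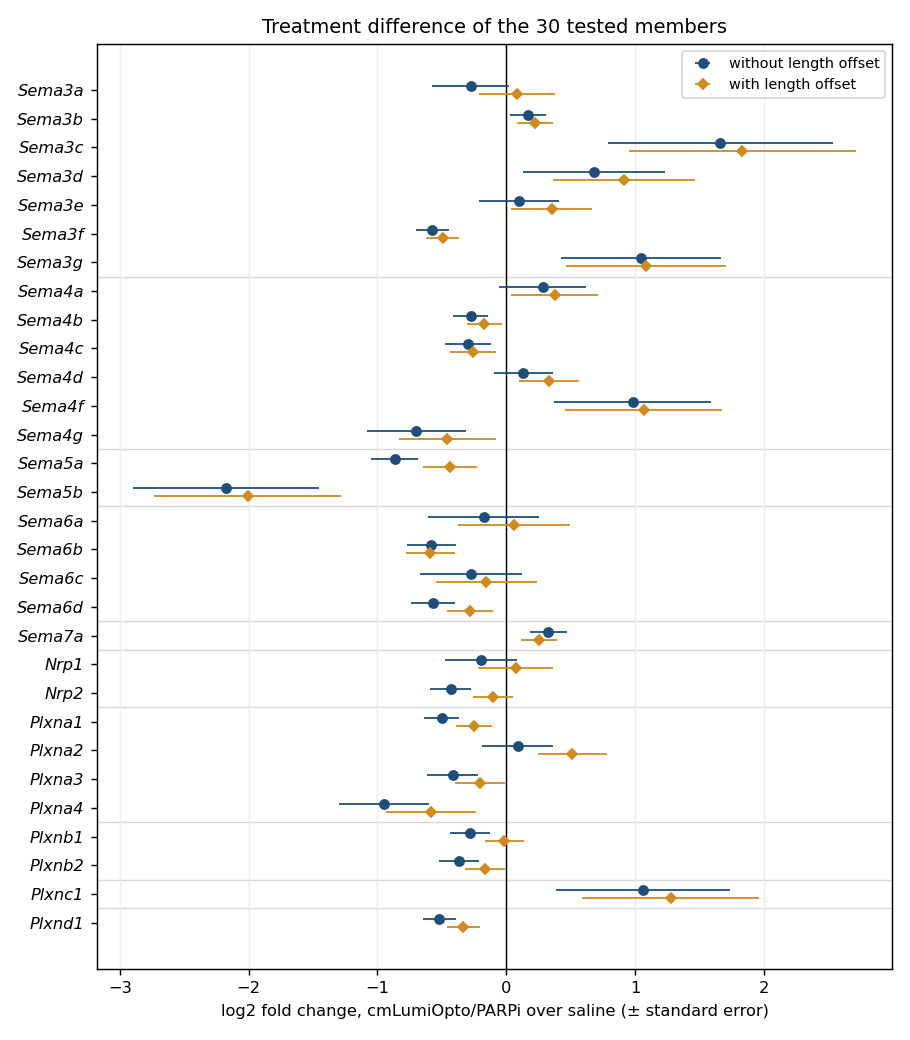
Log2 fold change of cmLumiOpto/PARPi over saline with its standard error (horizontal bars) for the 30 tested members, without the length offset (blue circles) and with it (amber diamonds). The diamonds lie to the right of the circles in most genes, Sema5a moving from -0.87 to -0.44, whereas Sema3f, Sema6b and Sema7a hardly move.

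Ordered by level per kilobase over the 4 libraries, Plxnb2 was the highest member at 57.5 CPM per kilobase, followed by Sema3f (35.4), Sema7a (28.5), Nrp2 (24.9), Plxnd1 (24.5), Sema4c (18.7) and Plxna1 (15.5). These 7 were the members above 10 CPM per kilobase, and 9 members were below 1. The lowest were Sema5b at 0.105 and Plxnb3 at 0.0615 CPM per kilobase. Between neighbours in this order, 28 of 30 pairs had overlapping ranges over the 4 libraries. The 2 gaps were below Plxnb2 and below Plxna1, where the next gene was Sema4b at 9.67 CPM per kilobase. In each library Plxnb2 alone made between 50.1% and 52.9% of the plexin level per kilobase, a share that did not follow the treatment.

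Several members followed the replicate number or a single library more than the treatment. In 16 of the 30 tested members replicate 1 was above replicate 2 in both groups, a larger share than the 30.1% of all tested genes. The 2 treated libraries differed by more than 2-fold in 7 tested members (Sema3c, Sema3d, Sema3g, Sema4f, Sema5b, Sema6a and Plxnc1), and the 2 saline libraries in 3 (Sema3c, Sema4a and Plxnc1). The 6 members Sema3c, Sema3d, Sema3g, Sema4d, Sema4f and Plxnc1, of 30 tested, ranked the libraries treated 1, saline 1, treated 2, saline 2. Over all tested genes the share with that order was smaller, at 6.79%.

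The summed endothelial markers ranked the libraries in that same order, and so did T and NK cell markers at 43.0, 15.7, 90.4 and 26.2 CPM. The lung epithelial lists moved as well. Alveolar type 1 markers summed to 370 and 151 CPM in saline and 1067 and 522 CPM after treatment. Type 2 markers summed to 1719 and 464 CPM against 8328 and 2973 CPM, and airway markers to 1157 and 83.8 CPM against 5711 and 3130 CPM. Of 8 genes per list, 6 of type 1, 7 of type 2 and 8 of airway were higher in both treated libraries. The type 1 genes Clic5 and Pdpn overlapped, and the type 2 gene Abca3 was lower (147, 129, 125 and 94.0 CPM). In sum, fibroblast markers went from 5544 and 4171 CPM down to 2005 and 2257 CPM. In that list 7 of 8 genes were lower in both treated libraries and Tcf21 was higher. Tumour epithelial markers overlapped at 3436 and 3679 CPM against 3094 and 4147 CPM. Whether their reads came from tumour or lung epithelium was not tested, so this sum does not measure tumour content. The mural sum (275 and 309 CPM against 260 and 220 CPM) was lower in both treated libraries, but of its 8 genes 3 were lower, 1 (Rgs5) was higher and 4 overlapped, with a median log2 fold change of 0.029. B cell markers (11.9 and 5.59 CPM against 20.4 and 12.5 CPM) were higher in sum. Of the 6 B cell genes tested 3 were higher and 3 overlapped, among them Cd22, the most abundant (6.58, 3.27, 8.06 and 3.73 CPM). Blk and Fcer2a had too few counts to test. Neutrophil markers (1355 and 586 CPM against 866 and 1690 CPM) overlapped. No listed marker was at 0 in all 4 libraries. The part of these cell type markers in the member levels was not tested.

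**Figure D5:**
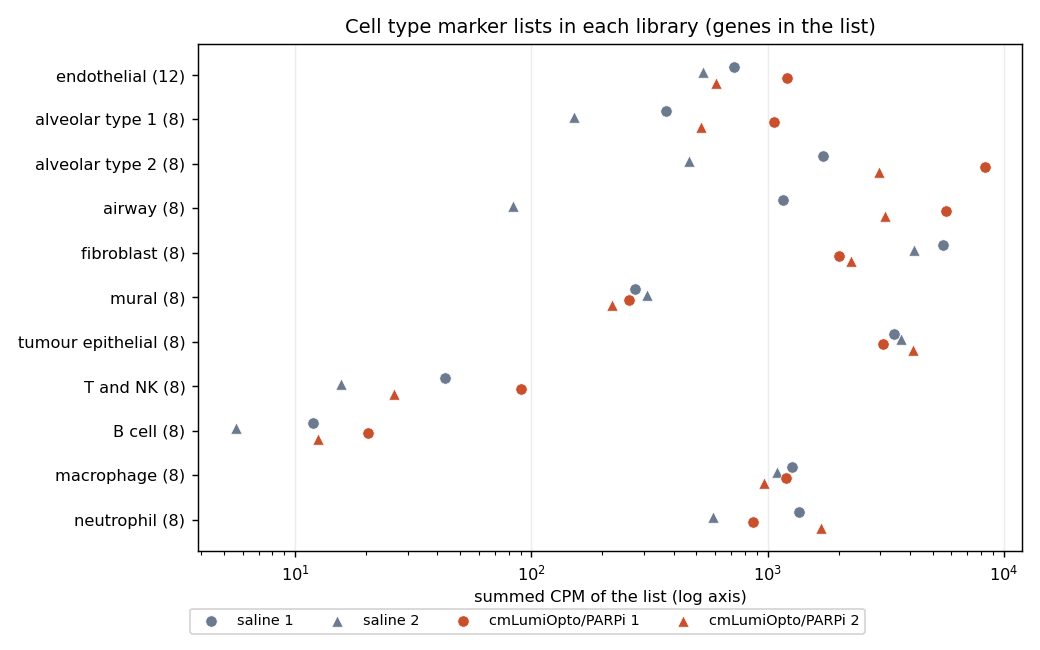
Summed CPM (log axis) of cell type marker lists in the 2 saline libraries (grey) and the 2 cmLumiOpto/PARPi libraries (orange), with the number of genes per list in brackets. Alveolar and airway lists are higher and the fibroblast list is lower in both treated libraries, while endothelial markers are led by treated 1 at 1210 CPM.

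Other genes of the pathway were counted from lists of known partners and effectors. Of 25 coreceptors, alternative receptors and heparan sulfate carriers, 23 were tested, with a median log2 fold change of -0.22, and Cntn2 and Timd2 had too few counts. In 8 of them both treated libraries were lower and in 2 both were higher, and at an unadjusted p under 0.05 there were 3 lower and 2 higher. Over all tested genes the shares were 27.8% and 27.4% without overlap, and 12.0% and 9.21% at that p. The lower were the proteoglycans Sdc3 (268, 224, 172 and 143 CPM) and Gpc1 (670, 719, 404 and 511 CPM) and the kinase-like receptor Ptk7 (188, 201, 117 and 152 CPM). The higher were Trem2 (35.3, 25.3, 53.7 and 61.0 CPM) and Tyrobp (73.3, 61.3, 105 and 95.4 CPM), a receptor and its adaptor on myeloid cells that join Plxna1 in response to Sema6d. With the length offset the median of the list was -0.056. At that p 3 were then lower and 1 higher, against 7.7% and 7.89% of all genes. Trem2 was at 0.98 on the log2 scale with the offset, and Tyrobp went from 0.57 to 0.26 (unadjusted quasi-likelihood p of 0.140). Cd72, the Sema4d receptor of B cells, had 10.8, 1.91, 28.8 and 7.94 CPM with overlapping groups.

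The effector list holds GTPases, their regulators, kinases and cytoskeletal enzymes below plexins, with 39 of 40 genes tested and Dpysl4 not. Its median log2 fold change was -0.13, and -0.085 with the length offset. In both treated libraries 20 genes were lower and 7 higher, where 27.8% and 27.4% of all tested genes were. At an unadjusted p under 0.05, 13 were lower and 0 were higher, against 12.0% and 9.21% of all tested genes, and with the length offset 7 were lower and 0 higher, against 7.7% and 7.89%. The smallest p belonged to Mical2, an actin-oxidising enzyme, at 94.6, 95.5, 53.2 and 51.9 CPM, followed by Arhgap35, a RhoA inhibitor, at 185, 192, 108 and 106 CPM. Gsk3b, a kinase that is active in semaphorin-induced collapse, had 109, 122, 61.3 and 66.7 CPM. In these 3 genes the treated libraries were nearly alike and far below the saline libraries, each with an adjusted p of 0.138 in the quasi-likelihood test. With the length offset the log2 fold change went from -0.85 to -0.46 in Mical2, from -0.82 to -0.56 in Arhgap35 and from -0.85 to -0.57 in Gsk3b. The effectors with the smallest p among those with a fold change above 0 were small GTPases, Rras at 69.4, 62.6, 82.1 and 81.5 CPM, Rap1b at 293, 317, 373 and 365 CPM and Rap1a at 105, 118, 139 and 128 CPM, and none of the 3 reached an unadjusted p of 0.05. With the length offset Rras was at 0.028 on the log2 scale. DESeq2 called 11 of the 60 genes of both lists that it gave an adjusted p, against 7.71% of all genes, and the quasi-likelihood test called 0.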

How the data were processed

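Bulk RNA of lungs with 4T1 metastases was sequenced in 2 saline and 2 cmLumiOpto/PARPi libraries, grouped by the sample titles. The authors mapped the reads with HISAT2 and deposited raw whole-number counts of reads for every gene, beside its coordinates, length and biotype. The processing notes name mm39 and the methods name GRCm38. GENCODE M21, an annotation of GRCm38, holds 52073 of the identifiers and places 2.76% of them, and 0 of the 31 members, where the table does, so gene positions are printed as the table gives them and promoters as RefSeq gives them on GRCm38.p6, and the builds were not joined.

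The counts were tested in R 4.3.3 with edgeR 4.0.16 (filterByExpr with a minimum count of 10, TMM factors, glmQLFit with its default legacy option, glmQLFTest, Benjamini-Hochberg over 15167 genes, threshold 0.05). The standard error is the log2 fold change divided by the square root of F. The length offset was a loess (span 0.5) on log gene length in each library, centred per library. It was fitted to each gene's log2 CPM minus the mean of that gene over the 4 libraries. Alternatives were DESeq2 1.42.0, other edgeR tests, scalings and filters, the replicate number as a block, the length offset, and leaving out each library. The methods were tested on simulated data. Replicates of a group were further apart than counting noise allows (chi-square per degree of freedom of 24.1 in saline and 41.1 after treatment, genes with at least 10 counts), so each library counted as 1 replicate, and counting error alone understates the spread.

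All members are named. Of the partner and effector lists, up to 3 genes in each direction with the smallest p are named, and other genes only as markers or overlapping neighbours. Members, lists and tests were chosen with earlier results of these data known. Motifs were searched on both strands as plain letters. No protein sequence was used here.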

Additional observations from a re-analysis of the deposited data

How the results depend on the processing

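With 2 libraries a group the number of calls depended on the test and the filter, while the direction of the receptor genes did not change except in Nrp1 and Plxna2. The quasi-likelihood test called 0 genes. DESeq2 called 1011 genes, of which 4 were members and 11 were partners or effectors, the exact test 815, 1 and 7, and the likelihood ratio test 865, 1 and 7. Without the filter on low counts 2000 genes passed, with 6 members (Sema3f, Sema5a and Plxna4 lower, Sema3c, Sema3g and Plxnc1 higher), 14 members at an unadjusted p under 0.05 and 15 partners or effectors. The other normalization, library totals, a minimum count of 50 (27 members tested) and the quasi-likelihood test without its legacy option called 0 members and left every member's direction as it was.

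The libraries share only a replicate number, and same-numbered libraries deviated together across genes (Spearman's rho = 0.298). With the replicate block 1822 genes passed, among them 6 members (Plxna1, Plxna4, Plxnd1, Sema3f and Sema5a lower, Plxnc1 higher) and 16 partners or effectors, and 14 members had an unadjusted p under 0.05. With the replicate block and the length offset together, 801 genes, 1 member (Plxnc1, higher) and 6 partners or effectors passed, and the medians were -0.064 over the members, 0.043 over the semaphorins and -0.14 over the plexins and neuropilins.

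The length offset alone left 4 members at an unadjusted p under 0.05 and gave medians of -0.060, 0.072 and -0.14. It moved Nrp1 to 0.072, Sema3a to 0.086 and Sema6a to 0.059, and with the block as well to 0.048, 0.054 and 0.031. That offset also removes any real difference that goes with length.

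Leaving out 1 library at a time, which assumes that the lone library left in its group varies like the other group, gave 0 to 31 genes past the threshold (31 without saline 1) and 0 members each time. Members without overlap numbered 16 to 21 lower (35.5% to 38.2% of all genes) and 2 to 9 higher (36.9% to 43.6% of all genes, with 9 members without saline 1 and 9 without treated 2), and the semaphorin median ran from -0.29 to 0.095. Log2 fold changes crossed 0 in 11 members, running from -0.62 to 0.11 in Nrp1, -0.073 to 0.24 in Plxna2, -0.67 to 0.0079 in Sema3a, -0.38 to 2.45 in Sema3c, -0.11 to 1.17 in Sema3d, -0.35 to 0.41 in Sema3e, -0.19 to 1.68 in Sema3g, -0.16 to 0.88 in Sema4a, -0.13 to 0.42 in Sema4d, -0.046 to 1.55 in Sema4f and -0.78 to 0.24 in Sema6a. Sema3c, Sema3d, Sema3e, Sema3g, Sema4d and Sema4f were below 0 without treated 1, and Sema3e, Sema4a and Sema4d without saline 2. The cause was not tested. Depth limits the members near the floor, Sema5b and Plxnb3, to a statement of their counts.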
